A study of Homo sapiens with 6 samples.

Results

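PDGFRB and MST1R are 2 receptor tyrosine kinases that other growth factors than EGF can switch on. They were taken by gene symbol, as 2 of the 1705 genes in the deposited table of parental PC9 against gefitinib-resistant PC9-GR cells, with earlier results of these data known. PC9 is an established human lung adenocarcinoma line with a deletion in EGFR exon 19, which both groups carry. PC9-GR came from stepwise selection in gefitinib, which blocks the EGFR kinase, starting at 0.5 µM and ending at 10 µM. It was routinely grown at 10 µM and then spent 7 days in drug-free medium ahead of RNA extraction. The other group is the parental line, and whether PC9-GR is 1 clone is not given in the sources used here. Each group has 3 libraries from independent cultures. The series as a whole concerns AATK, endosome recycling and ferroptosis in the resistant cells.

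PDGFRB is the beta receptor for platelet-derived growth factors. It is best known on fibroblasts and on the mural cells of blood vessels, where the dimeric ligands bring receptors together and the kinase domains phosphorylate each other. MST1R, also called RON, is the close relative of MET and the receptor for macrophage stimulating protein (MST1), and it is mainly found on epithelial cells. The ligand is made as an inactive precursor that trypsin-like serine proteases cut. In EGFR-mutant lung cancer, other receptor kinases can feed the same RAS and PI3K pathways when EGFR is blocked, which is why they are called bypass receptors.

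The stretches just before the start sites of the 2 genes are shown because the 2 genes start from very different levels in PC9. No binding or chromatin data belong to this series. Both genes are read from the minus strand, and each line gives the 250 bases before the RefSeq start on GRCh38.p14, 5′ to 3′ in the direction of transcription. Capitals mark CCAAT, a motif bound by NF-Y, and GGGCGG or its reverse complement CCGCCC, the GC box bound by factors of the SP family. The bases just after this start are held by 4 of 11 GENCODE 29 transcripts of PDGFRB and by 1 of 15 of MST1R. Which start these cells use is not known. The first stretch is chr5:150155846-150156095 and the second is chr3:49903874-49904123. The PDGFRB gene of GENCODE 29 reaches 150155872, inside the first stretch.
PDGFRB: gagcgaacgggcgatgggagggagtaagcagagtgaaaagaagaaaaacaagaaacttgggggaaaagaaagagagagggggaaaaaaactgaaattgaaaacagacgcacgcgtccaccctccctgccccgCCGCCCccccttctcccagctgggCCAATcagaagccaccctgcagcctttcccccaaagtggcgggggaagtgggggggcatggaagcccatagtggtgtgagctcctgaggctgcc
MST1R: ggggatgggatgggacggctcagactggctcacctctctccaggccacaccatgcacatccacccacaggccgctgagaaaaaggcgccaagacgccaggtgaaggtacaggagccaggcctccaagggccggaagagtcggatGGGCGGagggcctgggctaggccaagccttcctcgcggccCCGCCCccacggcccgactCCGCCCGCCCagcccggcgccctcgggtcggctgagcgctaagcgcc

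The PDGFRB stretch held 1 CCAAT, starting 94 bases before the start site, and 1 GC box match, starting 118 bases before it. The MST1R stretch held no CCAAT and 4 GC box matches, starting 106, 66, 47 and 43 bases before the start site, with the last 2 overlapping. On either strand, CCAAT or its reverse ATTGG occurred in 32.0% of 35116 RefSeq promoters cut to the same 250 bases, and the GC box in 42.6%. TATAAA, searched with its reverse TTTATA, was in neither stretch and in 10.7% of all. CAGGTG, an E-box searched with its reverse CACCTG, occurred once in the MST1R stretch, 154 bases before the start, and in 17.5% of all. The MST1R stretch was 70.8% G and C with 20 CpG dinucleotides, and the PDGFRB stretch 58.4% with 9, against medians of 58% and 11 over all promoters. These are descriptions of letters and say nothing of which factors bind.

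PDGFRB was nearly absent in PC9 and present at a low level in PC9-GR. It measured 0.1433, 0.0749 and 0.0661 FPKM (fragments per kilobase of transcript, scaled to library size) in PC9 replicates 1, 2 and 3. In PC9-GR replicates 1, 2 and 3 it measured 3.7723, 3.6889 and 2.3817 FPKM. All 6 values lay above the lowest value of the table, 0.001 FPKM, and the groups did not overlap: the lowest PC9-GR library was 16.6-fold above the highest PC9 library. The means were 0.0948 ± 0.0423 and 3.28 ± 0.780 FPKM (SD, n = 3 each), a 34.6-fold difference. Its size is uncertain, since the PC9 values varied with a coefficient of variation of 44.6%, more than in 92.9% of the tested genes (median 14.0%).

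On the scale log2(FPKM + 1), which understates the change of low genes, PDGFRB rose by 1.95 (SE 0.15, 95% interval 1.62 to 2.28). The adjusted p was 1.44e-06, from the two-sided moderated test of limma fitted over 1207 genes with Benjamini-Hochberg adjustment. With 0.1 in place of 1 as the pseudocount, the difference was 4.11 (SE 0.27). Genes entered the test with at least 1 FPKM in 3 libraries, and PDGFRB entered through PC9-GR alone, so it had to differ. In the authors' deposited table PDGFRB has a ratio of 35.1 and a q-value of 0.000285, and it ranks 32nd by ratio of the 871 genes listed as higher. RNA of whole cultures cannot tell apart more cells with PDGFRB RNA and more PDGFRB RNA per cell.

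MST1R was clearly detected in both lines and about 2-fold lower in PC9-GR as deposited. It measured 8.6535, 10.9239 and 8.3349 FPKM in PC9 replicates 1, 2 and 3, and 5.8242, 3.5011 and 4.3562 FPKM in PC9-GR replicates 1, 2 and 3. The highest PC9-GR library was below the lowest PC9 library, with a gap of 1.43-fold. The means were 9.30 ± 1.41 and 4.56 ± 1.17 FPKM (SD, n = 3 each), which is 2.04-fold lower. MST1R fell by 0.90 on the log2(FPKM + 1) scale (SE 0.17, 95% interval from -1.29 to -0.51, limma adjusted p = 0.000595). The PC9-GR libraries differed among themselves more than is usual in the table, with a coefficient of variation of 25.8% against a median of 14.7%. The authors' deposited table gives a log2 ratio of -1.04 with q = 0.00416. It ranks 787th of 834 lower genes there, close to the smallest absolute log2 ratio that the table holds, 1.0002.

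**Figure D1:**
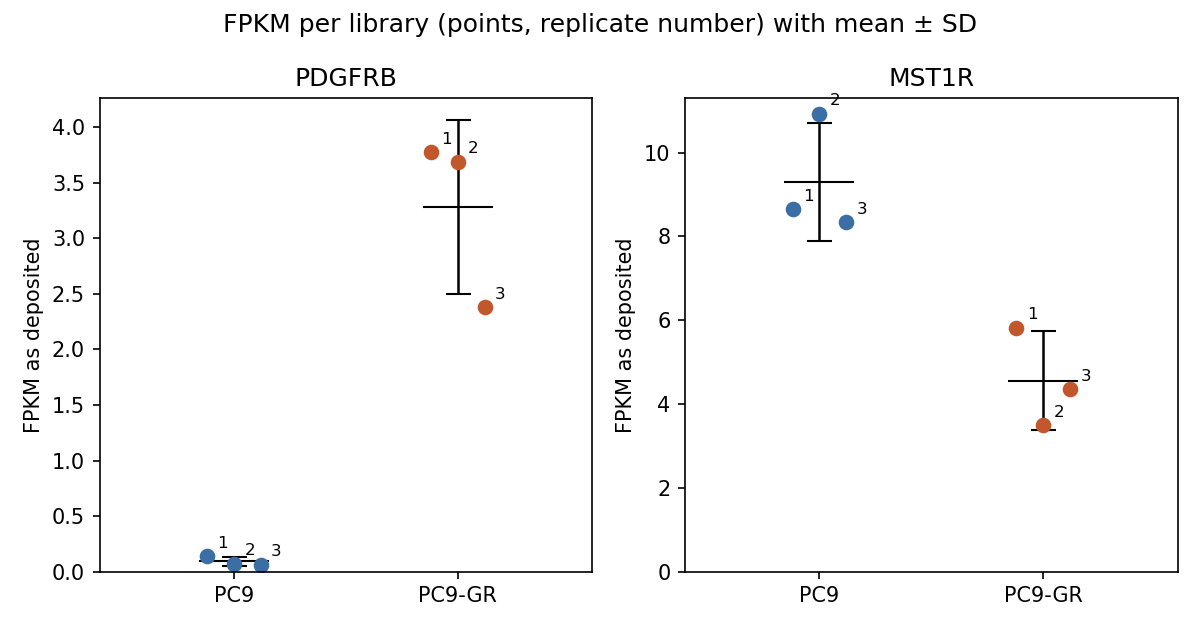
FPKM as deposited (y axis, linear, a separate scale for each gene) in the 3 PC9 and 3 PC9-GR libraries; points are libraries with their replicate number, and bars are the mean ± SD. PDGFRB lies at or below 0.1433 FPKM in PC9 and at 2.3817 or above in PC9-GR, and MST1R lies at 8.3349 or above in PC9 and at 5.8242 or below in PC9-GR.

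The table holds only genes that the authors had selected as changed on these same libraries, which limits what a call can say. The largest authors' p-value in it is 0.04965. Of the tested genes 99.7% were called at an adjusted p under 0.05, and the groups did not overlap for 94.8% of all listed genes. That both receptors were called and did not overlap is therefore what nearly every gene of the table shows. The sizes are bounded by the selection too, since no listed gene has an absolute authors' log2 ratio below 1.0002. What the values describe is the direction of each difference and how far it lies beyond that bound. In the test itself the filter also fixed the direction of PDGFRB.

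The MST1R call depended on how libraries were scaled, while PDGFRB, whose call the filter fixes, was higher under the 4 scalings run. The FPKM of all listed genes added up to 28346 or more per PC9 library and to 17114 or less per PC9-GR library. When each library was scaled to the same sum, MST1R measured, in scaled FPKM, 7.10, 8.52 and 6.35 in PC9 and 8.11, 4.79 and 5.92 in PC9-GR, so the groups overlapped. The difference was then -0.21 (95% interval from -0.62 to 0.19, limma adjusted p = 0.276), with 48.6% of tested genes called higher and 35.9% lower. This scaling moved the median gene upward by 0.61, MST1R by 0.69 and PDGFRB by 0.39. PDGFRB stayed called, at 2.34 (limma adjusted p = 3.51e-07).

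HSP90AA1 alone makes up a large part of the summed FPKM, and an alternative chosen after seeing the data left it out of the sums. The MST1R difference was then -0.36 (95% interval from -0.77 to 0.05, limma adjusted p = 0.0795), with 46.3% of tested genes called lower. With median-ratio scaling it was -1.16 and with quantile normalization -0.79, and MST1R was called lower with each (limma adjusted p = 0.000137 and 0.00386). The sums cover selected genes only, and no unselected gene is at hand to choose between the scalings.

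**Figure D2:**
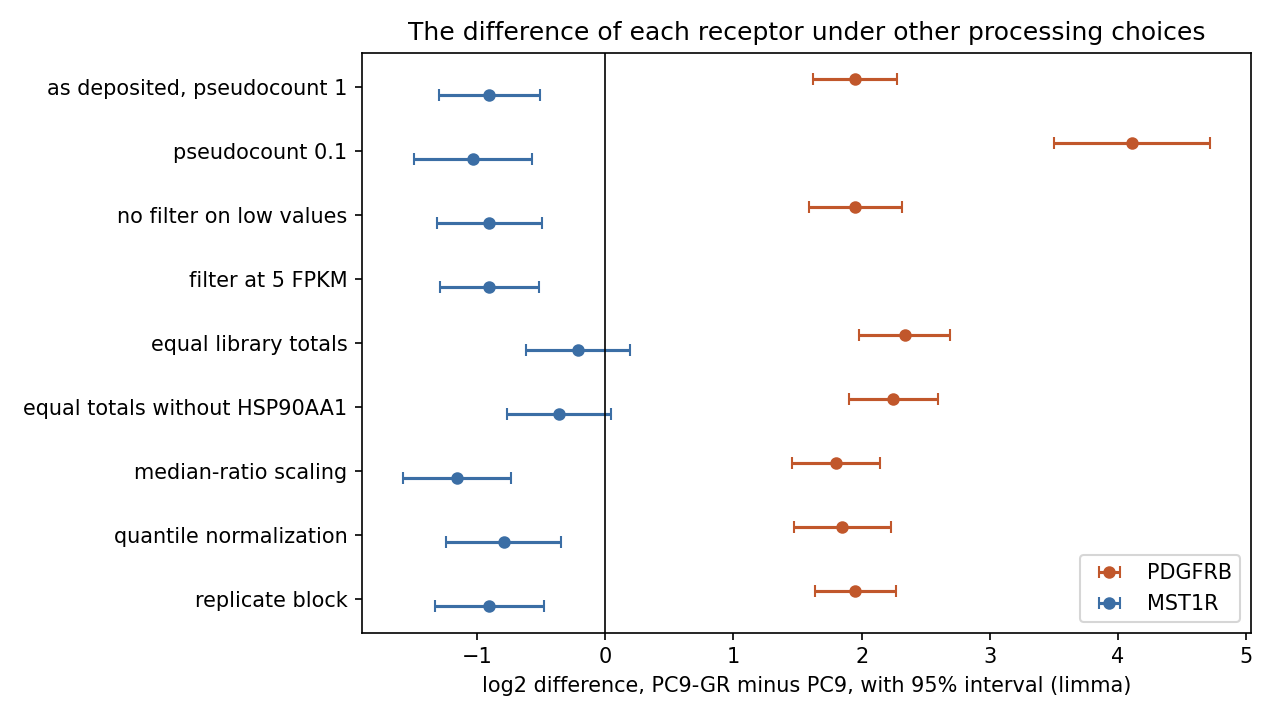
The log2 difference of PC9-GR minus PC9 (x axis) for PDGFRB and MST1R under 9 processing choices (y axis), with limma 95% intervals as bars. PDGFRB stays between 1.80 and 4.11, and the MST1R interval includes 0 only with equal library totals, with and without HSP90AA1; PDGFRB has no value with the filter at 5 FPKM.

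A ratio of the 2 receptors within a library is free of library scaling, and FPKM is already per length. MST1R exceeded PDGFRB by 60.4-fold, 145.8-fold and 126.1-fold in PC9 replicates 1, 2 and 3. In PC9-GR replicates 1 and 3 it exceeded PDGFRB by 1.54-fold and 1.83-fold, and in replicate 2 PDGFRB was the higher at 1.05-fold. The mean log2 ratio of PDGFRB to MST1R went from -6.69 ± 0.68 to -0.47 ± 0.49 (SD, n = 3 each), a difference of 6.22. An exact permutation test (two-sided) returned p = 0.1, which is as low as 3 against 3 libraries can go. This outcome was fixed, because each receptor already separated the groups, in opposite directions, and the ratio had to separate them too. By FPKM, MST1R lay far above PDGFRB in PC9, and the pair lay at similar levels in PC9-GR. The MST1R locus in the table is as long as MST1R and its neighbour MON1A together. How reads were divided there is not known, so the level of MST1R beside PDGFRB is uncertain.

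Among all receptor tyrosine kinases of the table, PDGFRB moved from the lowest place to the middle. Of the 58 human members of the family, 11 are rows of the table, and the other 47, among them EGFR and MET, were not analysed here. PDGFRB ranked 11th of 11 by FPKM in each PC9 library. Its highest PC9 value lay below every PC9 value of the other listed receptors, the lowest being 0.1725 FPKM, in ERBB4. In PC9-GR it ranked 5th, 4th and 5th in replicates 1, 2 and 3. Its neighbours in that order overlapped with it: MST1R above, and below it the ephrin receptor EPHA4, whose highest PC9-GR library was at 2.6669 FPKM. Its rise was the largest among the 11, ahead of that of FGFR1, a receptor for fibroblast growth factors, at 2.69-fold. Falls reached 9.57-fold, in ERBB4, which was below the filter.

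In the same order of 11, MST1R ranked 4th, 3rd and 4th in PC9 replicates 1, 2 and 3. In PC9-GR replicates 1, 2 and 3 it ranked 4th, 5th and 4th. In PC9 its libraries overlapped with those of EPHA4 (9.0862 to 9.4426 FPKM) and lay below those of FGFR1 (12.9224 to 15.2134 FPKM). In PC9-GR it lay below STYK1, a kinase-like membrane protein, at 7.5040 to 8.4942 FPKM, and overlapped with PDGFRB. As a share of the summed FPKM of the 11 receptors, MST1R went from 10.6% ± 1.17 to 5.78% ± 1.79 and PDGFRB from 0.108% ± 0.0476 to 4.14% ± 1.09 (SD, n = 3 each). The sum itself ranged from 83.8 to 91.7 FPKM over the PC9 libraries and from 75.2 to 82.4 FPKM over the PC9-GR libraries. ERBB2 and FGFR1 held most of it in every library.

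Receptors of the family moved in both directions. Of the 7 tested, 3 were called higher and 4 lower, beside 48.4% and 51.3% of all tested genes, and the median log2 difference was -0.90 beside -0.63. PDGFRB rose with FGFR1, from 14.1 ± 1.15 to 37.9 ± 4.48 FPKM, and with STYK1, from 4.16 ± 0.324 to 8.11 ± 0.531 FPKM. MST1R fell with ERBB2, 2.14-fold, with EPHA4, 4.31-fold from 9.28 ± 0.182 FPKM, and with EPHA10, 3.02-fold. EPHA4, EPHA10 and ERBB2 were still called lower after scaling to equal sums (limma adjusted p = 6.64e-05, 0.0173 and 0.0334), so MST1R was the member that lost its call. The remaining 4, LTK, EPHB6, AATK and ERBB4, were below the filter. Without the filter LTK was called higher and EPHB6, AATK and ERBB4 lower, which gave 4 higher and 7 lower beside 49.6% and 47.5% of all genes. AATK, the kinase named in the series title, lay below both receptors in PC9-GR at 0.0779 ± 0.0363 FPKM.

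**Figure D3:**
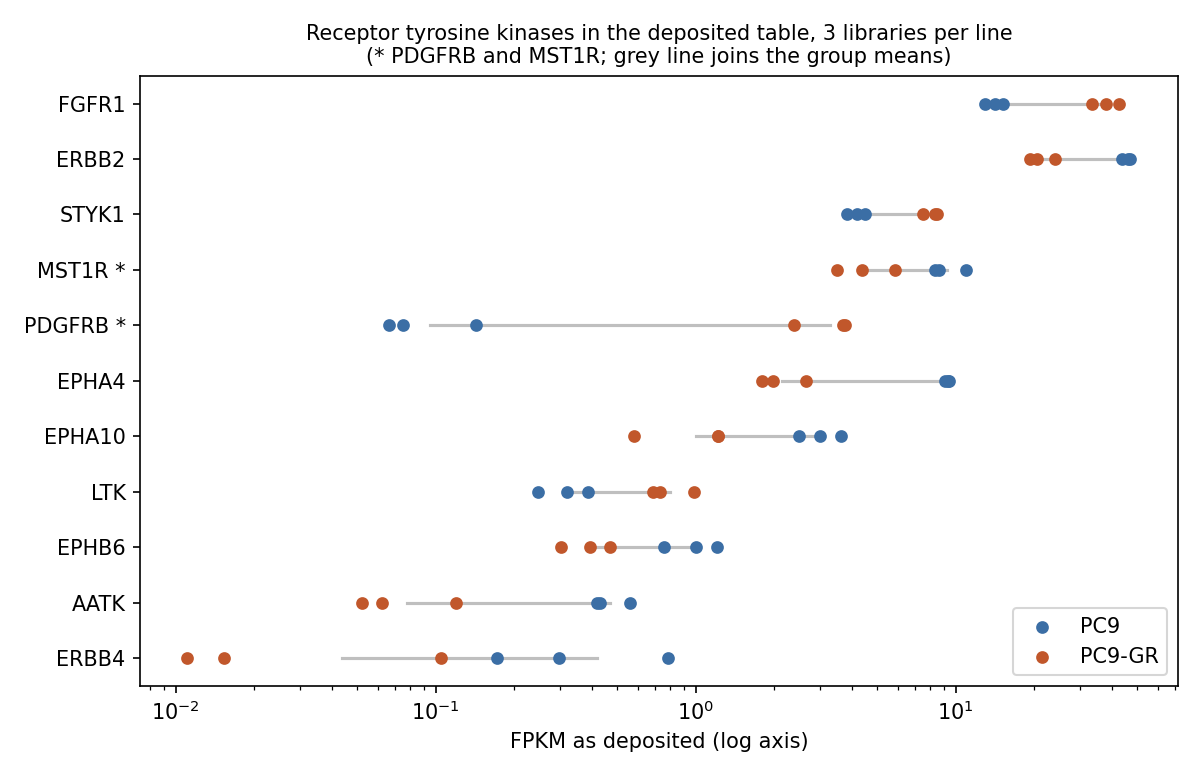
FPKM as deposited (x axis, logarithmic) of the 11 receptor tyrosine kinases in the table, ordered by their PC9-GR mean; points are the 3 libraries per line and grey lines join the group means. PDGFRB is the lowest of all in PC9 and 5th by mean in PC9-GR, while MST1R is 3rd by mean in PC9 and 4th in PC9-GR.

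Of the listed genes grouped here with PDGFRB, those tested were called higher, while the phosphatase PTPN6, below the filter, was lower. No PDGF ligand gene (PDGFA, PDGFB, PDGFC or PDGFD) and no PDGFRA is a row of the table, so their levels were not analysed here. Of 16 ligands and partners, 4 are in the table and all 4 were called higher, beside 48.4% of all tested genes, with a median log2 difference of 1.00 beside -0.63 over all tested genes. SPARC, a matrix protein that binds PDGF, rose from 19.8 ± 3.43 to 231.7 ± 16.7 FPKM (SD, n = 3 each). LRP1, a large endocytic receptor that PDGFRB phosphorylates, rose 2.26-fold from 8.17 ± 0.382 FPKM. S1PR1, a sphingosine 1-phosphate receptor reported in complexes with PDGFRB, rose 2.69-fold from 1.13 ± 0.297 FPKM. It too needed PC9-GR to pass the filter, with 0.8792 FPKM in PC9 replicate 2. PDGFRL, a receptor-like protein without a kinase domain, rose 2.18-fold from 1.91 ± 0.164 FPKM.

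Of 45 adaptors, enzymes and shut-off genes of the receptor, 4 are in the table. SRC, a kinase that docks on activated PDGFRB, rose 2.33-fold from 10.7 ± 1.30 to 24.9 ± 1.37 FPKM. PLCG2, a phospholipase C of the gamma class, measured 0.806 ± 0.512 and 1.90 ± 0.416 FPKM and was called higher (limma adjusted p = 0.00641). That call was lost with quantile normalization (limma adjusted p = 0.0516). PLCG2 needed PC9-GR to pass the filter, since its PC9 replicates measured 1.3178, 0.2942 and 0.8057 FPKM. The adaptor SHC2 and the phosphatase PTPN6 were below the filter. SHC2 measured 0.0714 ± 0.0636 and 0.499 ± 0.406 FPKM, and PTPN6 0.538 ± 0.0685 and 0.211 ± 0.0710 FPKM. Without the filter SHC2 was called higher and PTPN6 lower (limma adjusted p = 0.0313 and 0.00350).

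Genes that act with MST1R were split. Its ligand MST1, the relatives HGF and MET, the activating protease ST14 and the inhibitors SPINT1 and SPINT2 are not rows of the table and were not analysed here. Of 24 ligands, proteases and inhibitors, 4 are in the table, with calls in both directions. HPN (hepsin), a membrane protease that cuts the MST1 and HGF precursors, rose 2.21-fold from 1.03 ± 0.119 to 2.28 ± 0.767 FPKM. It needed PC9-GR to pass the filter, since its PC9 replicates measured 0.98, 1.1655 and 0.944 FPKM. F12, the precursor of a protease that can activate HGF, fell 2.27-fold from 7.03 ± 0.532 FPKM. SERPINB5 (maspin), a serpin without known inhibitory action on such proteases, fell 4.61-fold from 99.03 ± 24.2 FPKM.

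Of 22 surface partners and adaptors of MST1R, ERBB2 and ITGB4 are in the table, and both were called lower, beside 51.3% of all tested genes. ITGB4, the integrin chain of hemidesmosomes, fell 3.16-fold from 154.8 ± 23.1 to 48.9 ± 6.53 FPKM. ERBB2 fell from 45.7 ± 1.67 to 21.4 ± 2.49 FPKM.

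Few markers of fibroblasts, epithelium or blood cells are rows of the table, and any marker that is a row was selected as changed. Of 28 fibroblast and mural cell markers, 5 are in the table, PDGFRB included. Besides PDGFRB, ANPEP and ACTA2 were tested, and both were called higher, beside 48.4% of all tested genes. ACTA2, like PDGFRB, passed the filter through PC9-GR alone, so its call was fixed by the filter. Its q-value in the authors' deposited table is 0.0896. The ACTA2 locus there runs from 90639490 to 90775542, and whether other genes share it was not checked. ANPEP, a surface peptidase, rose from 12.3 ± 0.896 to 54.6 ± 2.46 FPKM, and ACTA2, smooth muscle actin, from 0.849 ± 0.0851 to 1.99 ± 0.524 FPKM. DES (desmin) and CNN1 (calponin) were below the filter, at 2.41 ± 1.33 and 1.70 ± 0.697 FPKM in PC9-GR, and were called higher without it. The 4 markers other than PDGFRB summed to 13.0 to 14.5 FPKM per PC9 library and 55.0 to 64.5 FPKM per PC9-GR library, and none was at the floor. COL1A1, DCN, LUM and RGS5, which define such cells, are not rows of the table, and their levels were not analysed here. The part of these genes in the PDGFRB difference was not tested.

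Of 30 epithelial markers, 5 are in the table and all 5 were called lower, beside 51.3% of all tested genes: KRT5, KRT17, CLDN1, FOXA1 and OVOL1. Their sum was 200.2 to 236.3 FPKM per PC9 library and 54.5 to 59.7 FPKM per PC9-GR library. KRT5 fell 5.46-fold from 90.8 ± 20.7 FPKM, and each of the 5 was still above 1 FPKM in every PC9-GR library. In the table the FOXA1 locus runs from 38059188 to 38672128 and the KRT17 locus from 39775688 to 39943183. Whether other genes share these loci was not checked. The cell type label is epithelial, and EPCAM, CDH1 and KRT8 have no row in the table with which to check it. Of 20 endothelial and blood cell markers, 4 are in the table, CD68, ITGAM, ITGAX and LYZ. CD68, a macrophage marker, was called higher, 2.07-fold, though its q-value in the authors' deposited table is 0.0699. Its locus there runs from 7465191 to 7536700, and whether other genes share it was not checked. The integrins were called higher too, ITGAM 12.7-fold to 7.25 ± 2.12 FPKM and ITGAX 23.8-fold to 2.83 ± 0.187 FPKM. These calls stand beside 48.4% of all tested genes called higher. ITGAX also passed the filter through PC9-GR alone, so its call was fixed by the filter. ITGAM needed PC9-GR to pass, since its PC9 replicates measured 0.1685, 1.2383 and 0.3034 FPKM. LYZ was below the filter at 1.09 ± 0.459 and 0.142 ± 0.125 FPKM, was at the floor in PC9-GR replicate 1, and was called lower without the filter (limma adjusted p = 0.00139). The 4 summed to 18.7 to 22.0 FPKM per PC9 library and 43.0 to 51.6 FPKM per PC9-GR library, most of it CD68. Whether these genes bear on either receptor was not tested.

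The listed genes next to each receptor on its chromosome are described below as runs. A run holds the consecutive listed genes with the receptor's direction, so a shared direction within it is how it was defined. The table places PDGFRB (ENSG00000113721) on chromosome 5 at 149493399 to 149535435 and MST1R (ENSG00000164078) on chromosome 3 at 49924434 to 49967606, and it names no build. The PDGFRB locus spans 42037 bp, close to the 42036 bp of the gene in GENCODE 29 on GRCh38. The MST1R locus spans 43173 bp, against 16872 bp for the gene. From the first base of MST1R to the last of its neighbour MON1A is 43172 bp in GENCODE 29, so the locus is as long as both genes together. MON1A is not a row of the table, and how reads were divided between the pair is not known. Annotated antisense genes, AC105935.1 and AC105935.2, also overlap MST1R in GENCODE 29, and the strand setting of the counting is not given in the sources used here.

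PDGFRB lies in a run of 8 consecutive listed genes with a higher authors' ratio, from PCYOX1L to SPARC (148737569 to 151104343), with a median log2 ratio of 1.49 in the authors' deposited table. On chromosome 5 as a whole 43 of 84 listed genes, 51.2%, were higher, beside 51.1% of the whole table. Next to PDGFRB on the lower side is SLC26A2, a sulfate transporter, which rose 2.57-fold from 6.59 ± 0.585 FPKM. On the other side are ARSI, an arylsulfatase, which rose 2.94-fold from 1.54 ± 0.109 FPKM, and CD74, the MHC class II invariant chain. Whether other genes share the loci of SLC26A2 (149340299 to 149432386) and ARSI (149675905 to 149718870) was not checked. CD74 measured 0.0770 ± 0.0478 and 1.24 ± 0.161 FPKM, also near silent in PC9. It passed the filter through PC9-GR alone, as PDGFRB did, so its higher call was fixed by the filter. GPX3, a secreted glutathione peroxidase, rose 2.05-fold and PCYOX1L, related to prenylcysteine oxidase, 2.62-fold. The lncRNA CTC-529P8.1, just outside the run, was called lower (limma adjusted p = 0.00778), a call lost with equal library totals (limma adjusted p = 0.156). CSF1R, the receptor gene directly beside PDGFRB in GENCODE 29, is not a row of the table.

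MST1R lies in a run of 13 consecutive listed genes with a lower ratio, from ZNF589 to MAGI1 (48282589 to 66024509), with a median log2 ratio of -1.33 in the authors' deposited table. On chromosome 3 as a whole 57 of 88 listed genes, 64.8%, were lower, beside 48.9% of the whole table. SEMA3F, a secreted semaphorin 156.0 kb away by locus centre, fell 3.18-fold from 8.59 ± 1.32 FPKM. Its locus in the table runs from 49977439 to 50226508, and whether it holds other genes was not checked. The zinc finger gene ZNF589 fell 2.12-fold from 3.18 ± 0.127 FPKM and the RNA-binding protein gene PCBP4 2.11-fold from 12.5 ± 0.339 FPKM. PCBP4 shares its locus in the table with ABHD14B, so its value is uncertain. Scaled to equal sums, ZNF589 and PCBP4 lost their calls as MST1R did (limma adjusted p = 0.198 and 0.112), while SEMA3F kept its call. VPRBP was below the filter, at 0.659 ± 0.172 and 0.308 ± 0.0623 FPKM. Further on the other side lie PTH1R, below the filter and higher at 0.846 ± 0.126 FPKM in PC9-GR, and ZDHHC3, a palmitoyltransferase. ZDHHC3 was called lower, a call lost after scaling to equal sums and with quantile normalization (limma adjusted p = 0.0807 and 0.102), and its value is uncertain because EXOSC7 has the same locus in the table.

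**Figure D4:**
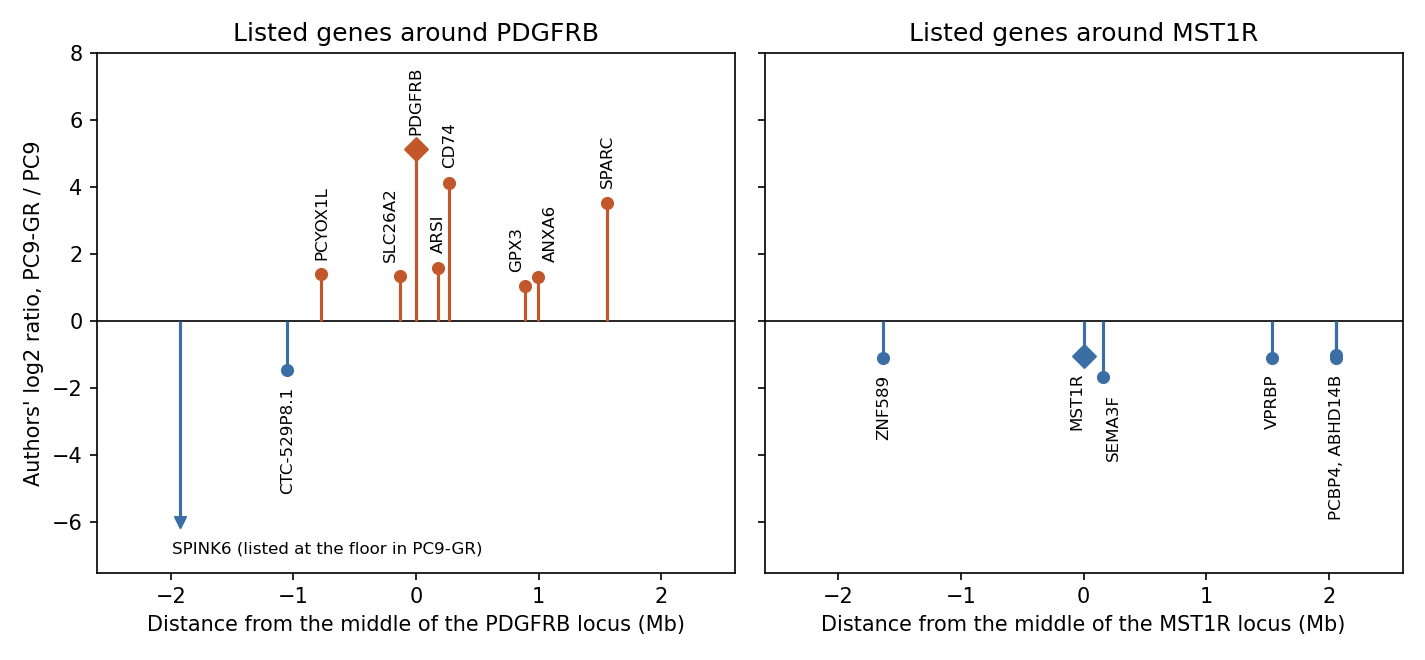
The authors' log2 ratio of PC9-GR to PC9 (y axis) of listed genes against the distance of their locus centre from that of PDGFRB (left) or MST1R (right) in Mb (x axis); diamonds are the 2 receptors. The 7 higher genes around PDGFRB include CD74 at 4.13 and SPARC at 3.53, the genes around MST1R within the plotted distance are lower, with the higher gene PTH1R lying outside it, and SPINK6 is drawn at the edge because it is listed at the floor in PC9-GR.

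The genes most like each receptor over the 6 libraries were picked by Pearson's r of log2(FPKM + 1) and by Euclidean distance of the same values. For PDGFRB the highest r belonged to SH3D21, COL27A1 and AP001610.5 (0.997 each, over 6 libraries). COL27A1, a fibrillar collagen, measured 0.490 ± 0.0376 and 3.16 ± 0.418 FPKM. The nearest by distance were HPD, GALNT9 and DOCK2 (0.357, 0.399 and 0.399), all below 0.25 FPKM in each PC9 library. COL27A1, AP001610.5, HPD, GALNT9 and DOCK2 passed the filter through PC9-GR alone, as PDGFRB did. For MST1R the highest r belonged to GRHL3, PTGER4 and HIST1H3G (0.992, 0.988 and 0.983). GRHL3, an epithelial transcription factor, measured 3.02 ± 0.428 and 1.30 ± 0.340 FPKM, and PTGER4, a prostaglandin E2 receptor, 19.03 ± 1.59 and 9.08 ± 2.78 FPKM. In both, as in MST1R, PC9 replicate 2 was the highest library and PC9-GR replicate 2 the lowest. The nearest to MST1R by distance were ZNF559, HSD11B2 and SLC35C1 (0.297, 0.469 and 0.484). High r values are common here, since all listed genes were chosen for a difference between the same groups. With PDGFRB r was above 0.9 for 486 of the 1206 other tested genes, and with MST1R for 227. That cut lies below the r values printed above.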

How the data were processed

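RNA-seq of 3 PC9 and 3 PC9-GR cultures was analysed from 1 table of the authors. TopHat and Cufflinks were used, per the submitters' processing notes. The sources used here give no version, build, annotation or strand setting. The table holds the authors' FPKM per library and group, their ratio, its log2 value, and a p-value and q-value, per the file headers. It lists only genes selected as changed, without counts, so the depth per library is unknown and counting error cannot be stated.

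FPKM was used as deposited. Genes with at least 1 FPKM in 3 of 6 libraries (1207 of 1705) were tested on log2(FPKM + 1) with limma 3.58.1 in R 4.3.3 (variance trend, group as the only term, Benjamini-Hochberg adjustment, threshold 0.05), a step checked on simulated data. The ratio of the receptors used an exact permutation test in scipy 1.17.1. Alternatives were the pseudocount, the filter, 4 scalings, no variance trend, a replicate block and leaving out each library.

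The receptors and gene lists were chosen with earlier results of these data known. Named genes are the 2 receptors, listed members of the gene lists, the 3 listed genes on either side of each receptor, and the 3 most alike by each measure. EGFR, MET and other genes without a row are named only to say so. The value of 1 member of the MST1R protease and inhibitor list is not reported here.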

Additional observations from a re-analysis of the deposited data

How the results depend on the processing

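PDGFRB was higher in the 14 alternatives that could be run, with log2 differences from 1.80 to 4.11. Its calls there show no stability, since the filter at 1 FPKM, which it passes through PC9-GR alone, was kept in all of them but the setting with no filter. It has no value with a filter at 5 FPKM, which it does not pass. MST1R was lower in each of its 15 alternatives (-1.16 to -0.21) and lost its call in 2, with equal library totals (-0.21) and with these totals without HSP90AA1 (-0.36), the latter chosen after seeing the data. Leaving out 1 library at a time gave 1.86 to 2.11 for PDGFRB and -1.06 to -0.76 for MST1R, and 5.95 to 6.61 for the log2 ratio of the 2. That ratio differed by 5.14 when 0.1 was added to each FPKM. Its test cannot pass 0.05 in any setting. Without the filter 7 receptor tyrosine kinases were called lower in place of 4, because more of them were tested. With the filter at 5 FPKM, 234 higher and 393 lower genes were called in place of 584 and 619, because 629 genes were tested. Of the calls 48.5% were higher as deposited, 57.5% with equal library totals and 37.3% with the filter at 5 FPKM.

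Replicate numbers in the titles do not show that samples were paired: deviations from the group means correlated at -0.0977, 0.0822 and 0.164 for numbers 1, 2 and 3, over genes. With the replicate block PDGFRB differed by 1.95 and MST1R by -0.90, both called (limma adjusted p = 5.90e-06 and 0.00142), and the ratio by 6.22 with an exact paired p of 0.25, the smallest possible. Depth is unknown, so the counting error behind the low PC9 values of PDGFRB cannot be given.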
